A study of Rattus norvegicus with 40 samples.

Results

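The comparison described here is that of T cells from the kidney with circulating T cells in SS/CRL rats, a type of Dahl salt-sensitive rat, kept on low-salt chow to an age of 10 weeks. Its members are all 31677 gene models of the table that set the kidney libraries of these rats against their blood libraries. For each gene model the log2 ratio of the kidney value to the blood value was computed. The comparison rests on 8 of the 40 libraries of the series, 4 from blood and 4 from kidney, and each library was made from a pool of 3 rats.

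The series holds 10 groups of 4 libraries, made from RNA of blood and kidney T cells of SS/CRL and SS/MCW rats on low-salt or high-salt chow. Besides the low-salt SS/CRL groups, the blood and kidney libraries of SS/CRL rats given high-salt chow for 3 weeks and of SS/MCW rats on low-salt chow were used, all at 10 weeks of age. No allele, transgene or drug is named for any of these groups, and all animals share the salt-sensitive background. The gate or beads that isolated the T cells, and the sex of the rats, are not given in the sources used here. The tables hold 1 value a group, in FPKM, which scales fragments to transcript length and to the size of the library, so no spread between libraries can be given for any value. The depth of the libraries is unknown. The labels describe the libraries as pools and do not say whether the blood and the kidney of a pool came from the same rats, so the deposited p-values measure the spread between pools as Cuffdiff modelled it.

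A T cell is known by its antigen receptor, whose chains stand on the membrane with the CD3 chains and signal through the kinases Lck and Zap70. Naive and central memory T cells circulate between blood and lymph nodes with the help of the chemokine receptor Ccr7 and the sphingosine phosphate receptor S1pr1. Cells that settle in tissues carry other adhesion and chemokine receptors, and effector cells make granzymes and chemokines. The kidney is built largely of tubule epithelium, whose proximal segment reabsorbs phosphate, glucose and amino acids and runs on mitochondrial respiration. In Dahl rats a high-salt diet raises blood pressure, and T cells enter the kidney.

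Of the 31677 gene models, 22643 were tested by the authors and 12115 of these were called, 53.5% (Cuffdiff q under 0.05). Higher in kidney were 7133, 31.5% of those tested, and lower in kidney were 4982, 22.0%. These shares are the background for every count of calls by list below. Among the calls, 2905 gene models were listed at 0 in blood and 866 were listed at 0 in kidney. The remaining calls, above 0 in both tissues, were split into 4228 higher and 4116 lower in kidney. Large differences leaned to the kidney side. Of the calls above 0 in both, 1004 were over 16-fold higher in kidney and 320 over 16-fold lower, and 187 were over 256-fold higher against 1 as far below, the gene model MSTRG.43177 without a symbol, at 9.43 FPKM in blood and 0.0178 FPKM in kidney. The median log2 ratio of the 6912 gene models with at least 5 FPKM in both tissues was -0.15. The same 2 groups also stand in tables within blood and within kidney, which were normalized separately. Across those tables the log2 ratio was higher by 0.25 to 0.32 for every 1 of 266 named gene models, so a ratio between about -0.3 and 0 can change its sign with the table used.

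**Figure D1:**
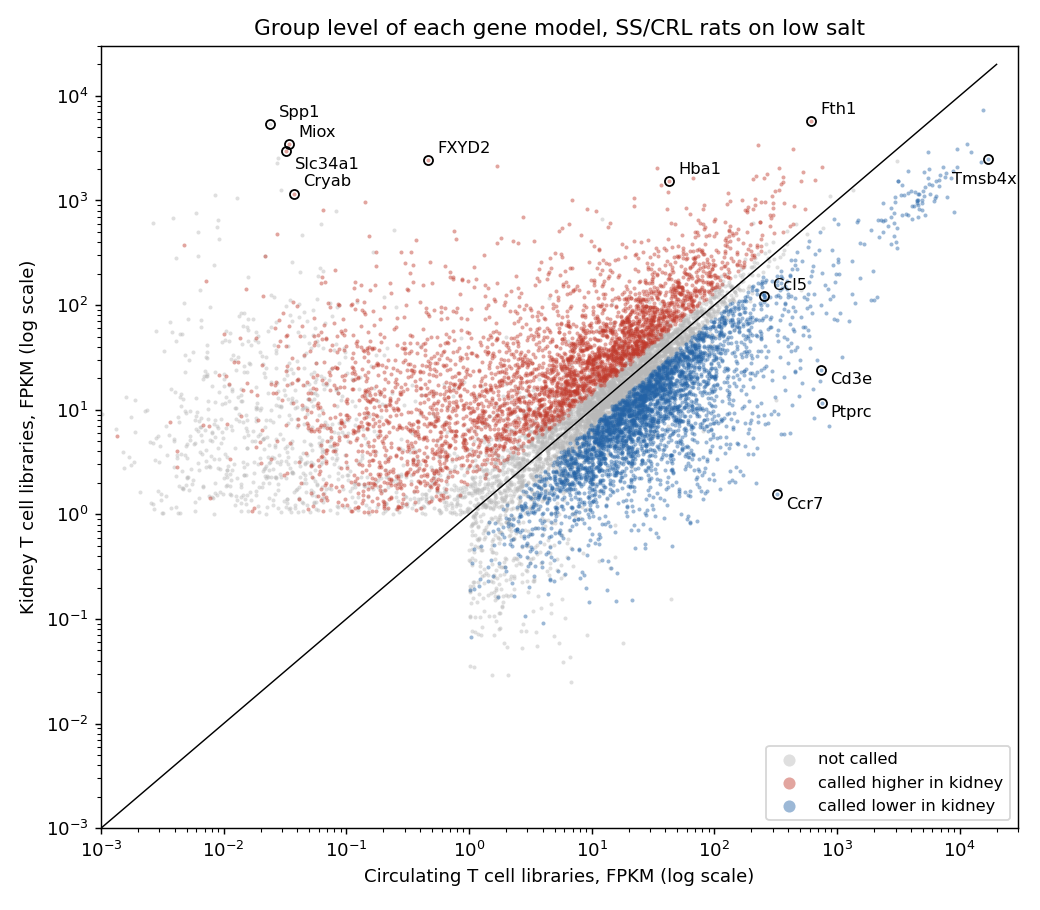
Level of each gene model with a symbol in the circulating (x axis) and kidney (y axis) T cell libraries, in FPKM on log axes, for tested gene models above 0 in both tissues and at or above 1 FPKM in the higher. Red points were called higher in kidney, blue points lower, grey points not called, and the line marks equal levels. Tubule genes such as Miox (0.0341 and 3435 FPKM) lie at the upper left, T cell genes such as Ccr7 (324 and 1.55 FPKM) at the lower right.

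The blood libraries carried the markers of T cells. Cd3e, a CD3 chain, stood at 740 FPKM there, and Ptprc, the leukocyte phosphatase CD45, at 751 FPKM. Against these, the B cell gene Cd79b was at 25.5 FPKM, the granulocyte gene S100a8 at 13.5 FPKM and the platelet gene Pf4 at 25.0 FPKM. The libraries labelled kidney T cells held T cell markers at a few percent of these levels and were rich in transcripts of tubule cells. In kidney Cd3e was at 24.2 FPKM and Ptprc at 11.6 FPKM, while Slc34a1, the phosphate transporter of the proximal tubule, was at 2989 FPKM and Umod, the uromodulin of the thick ascending limb, at 953 FPKM. Summed over the list, the 23 measured proximal tubule enzymes and factors reached 12476 FPKM in kidney against 19.2 FPKM in blood. The 4 CD3 chains summed to 93.5 FPKM in kidney against 2807 FPKM in blood. A level of a T cell gene that is low in kidney can come from fewer T cells or from less of that RNA in each T cell, and in these bulk libraries these cannot be told apart. The part that tubule RNA has in the results below was not tested.

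The 15 largest rises among called genes included transporters and enzymes of the proximal tubule. Miox, the myo-inositol oxygenase of the proximal tubule, went from 0.0341 FPKM in blood to 3435 FPKM in kidney, a log2 ratio of 16.62 (q = 0.00945). Slc34a1, at chr17:11856821-11872100 in build rn5, went from 0.0321 to 2989 FPKM (log2 16.51, q = 0.011). Next came Sult1c2a, a sulfotransferase, with 0.00475 FPKM in blood and 372 FPKM in kidney (q = 0.00935). These blood levels are close to nothing, so the size of each ratio depends on a very small denominator.

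Cryab, a small heat shock protein of the tubule, had 0.0376 FPKM in blood and 1161 FPKM in kidney. Fbp1, the fructose bisphosphatase of gluconeogenesis, had 0.0643 FPKM in blood and 820 FPKM in kidney. Gatm, which makes the creatine precursor guanidinoacetate, had 0.143 FPKM in blood and 977 FPKM in kidney. All 3 were called. FXYD2, the gamma subunit of the renal sodium pump, had the highest blood level of the 15 at 0.467 FPKM and reached 2442 FPKM in kidney (log2 12.35, q = 0.000146). The others were Cesl1, Cdkl1, Timp3, Cldn2, Cbs, Lamb2, Tmtc1 and Phldb2, with log2 ratios from 11.80 to 14.51. Of these, Cldn2 is the claudin of the leaky proximal junction, Timp3 an inhibitor of matrix proteases and Lamb2 a laminin chain of the glomerular and tubular basement membrane.

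Genes with no value at all in blood form a second set. Kap, a kidney protein induced by androgen in the proximal tubule, was at 2088 FPKM in kidney and listed at 0 in blood. Umod, at chr1:196127948-196141956, was at 953 FPKM in kidney and listed at 0 in blood. Defb1, an epithelial defensin, followed with 539 FPKM and Kif12, a kinesin, with 521 FPKM. Hgd, an enzyme of tyrosine breakdown, stood at 423 FPKM. These 5 were called with the smallest q in the table, 0.000146, and no fold is given for them.

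The 15 largest falls were mostly receptors of circulating lymphocytes. Ccr7, which guides T cells into lymph nodes, stood at 324 FPKM in blood and 1.55 FPKM in kidney, 0.48% of the blood level (log2 -7.70, q = 0.000146). S1pr1, by which T cells leave lymph nodes, stood at 416 and 6.05 FPKM, 1.45% of blood. Ccr9, a receptor for homing to the gut, stood at 15.9 and 0.149 FPKM.

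Other members of this set act in the antigen response. TCF7, the transcription factor of naive and memory T cells, had 646 FPKM in blood and 8.29 FPKM in kidney. Cd28, the main costimulatory receptor, at chr9:67358993-67389961, had 148 FPKM in blood and 2.06 FPKM in kidney. Btla, an inhibitory receptor, had 13.3 and 0.19 FPKM, and Slamf6, a lymphocyte adhesion receptor, had 63.8 and 0.83 FPKM. The set also held Sv2b, Ms4a4c, Mcart1l, Adam19, Treml2, Ntng2 and Fam65b, with log2 ratios from -7.14 to -6.03. All 15 thus stood at 0.48% to 1.53% of the blood level.

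Few transcripts of note were listed at 0 in kidney. The highest was Mir142, the host of a microRNA of blood cells, at 600 FPKM in blood, which was not called (q = 0.15). RET, a receptor kinase, had 11.7 FPKM in blood, and 2 variable segments of the T cell receptor alpha chain, Trav7-2 and Trav4-2, had 4.62 FPKM and 4.54 FPKM. These 3 and Zcchc18 at 3.85 FPKM were called lower, and Iglc2, an immunoglobulin light chain, at 7.21 FPKM was not called (q = 0.20).

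The promoters of the genes called on each side were compared with the letters of 6 motifs in RefSeq promoter sequence of build GRCr8, from 250 bases before to 50 bases after a gene's start. Of 9452 gene models with 1 symbol and at least 5 FPKM, 7692 matched a promoter, 81.4%. The HNF1 letters TTAATNATT, a site of the tubule factor HNF1, were found on either strand in 33 of 2820 promoters of genes called higher in kidney (1.17%) and in 9 of 2456 of genes called lower (0.366%). Over all 27457 promoters the share was 1.47%. The RUNX letters TGTGGTTT stood in 32 promoters of the higher set (1.13%), in 41 of the lower set (1.67%) and in 1.83% of all. The ETS letters CCGGAAG stood in 16.1% of the higher set, 18.8% of the lower set, 24.6% of tested genes that were not called and 9.22% of all, so their share was highest in genes that were not called. The HNF1 share in genes not called was 0.579% and the RUNX share 1.08%. The HNF4 letters CAAAGTCCA, the cAMP response element TGACGTCA and the AP-1 letters TGANTCA were searched in the same way, and matches of different motifs overlapped in 5 promoters. The median GC content was 61.0% in the higher set, 62.0% in the lower set and 60.7% in tested genes that were not called, against 52.3% over all promoters, so the shares over all promoters come from sequence of another base composition.

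The following promoters are those of the 2 genes with the highest level among matches that differed over 16-fold, chosen after their values were seen, to show how the letters sit in a gene of each side. They run 5′ to 3′ on the gene's strand in build GRCr8, with the motif in capitals. Pcbd1 encodes the dimerization cofactor of HNF1 and had 0.339 FPKM in blood and 323 FPKM in kidney. Its window is chr20:29581417-29581716 on the plus strand, and the HNF1 letters begin 66 bases before the start.
Pcbd1: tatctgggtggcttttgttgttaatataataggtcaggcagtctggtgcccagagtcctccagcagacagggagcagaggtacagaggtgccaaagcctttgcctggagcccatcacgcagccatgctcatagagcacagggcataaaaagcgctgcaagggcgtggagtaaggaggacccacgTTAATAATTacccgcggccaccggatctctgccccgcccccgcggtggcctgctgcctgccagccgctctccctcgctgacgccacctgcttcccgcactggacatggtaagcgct
Atp6v0a4 encodes a proton pump subunit of intercalated cells and had 0.032 FPKM in blood and 50.2 FPKM in kidney. Its window is chr4:67809043-67809342 on the minus strand, and the HNF1 letters begin 61 bases before the start.
Atp6v0a4: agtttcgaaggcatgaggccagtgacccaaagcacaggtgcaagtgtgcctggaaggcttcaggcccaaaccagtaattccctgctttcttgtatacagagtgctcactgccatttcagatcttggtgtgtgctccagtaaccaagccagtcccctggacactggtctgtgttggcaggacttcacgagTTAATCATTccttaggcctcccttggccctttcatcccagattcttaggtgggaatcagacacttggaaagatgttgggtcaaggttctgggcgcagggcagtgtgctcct
Cytip encodes a cytohesin-binding protein of lymphocytes and had 454 FPKM in blood and 23.3 FPKM in kidney. Its window is chr3:63134783-63135082 on the minus strand, and the RUNX letters, here on the opposite strand, begin 85 bases before the start.
Cytip: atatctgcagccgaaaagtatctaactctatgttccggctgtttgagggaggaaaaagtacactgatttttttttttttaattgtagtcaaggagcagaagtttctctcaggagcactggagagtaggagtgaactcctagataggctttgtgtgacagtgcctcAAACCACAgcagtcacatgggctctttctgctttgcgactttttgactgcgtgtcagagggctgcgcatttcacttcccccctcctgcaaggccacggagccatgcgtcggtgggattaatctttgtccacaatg
Cd28, with 148 and 2.06 FPKM, has its window at chr9:69660066-69660365 on the plus strand, and the RUNX letters begin 120 bases before the start.
Cd28: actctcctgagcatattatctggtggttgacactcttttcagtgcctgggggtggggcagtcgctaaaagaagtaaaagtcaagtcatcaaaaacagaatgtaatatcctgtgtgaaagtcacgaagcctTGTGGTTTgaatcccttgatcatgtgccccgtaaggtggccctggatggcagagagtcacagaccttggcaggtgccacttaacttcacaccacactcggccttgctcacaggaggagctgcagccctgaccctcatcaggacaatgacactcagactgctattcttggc

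All 4 CD3 chains were lower in kidney, at a similar fraction of blood. Cd3d stood at 690 FPKM in blood and 30.1 FPKM in kidney (log2 -4.52). Cd3g stood at 1102 and 31.7 FPKM (log2 -5.12). Cd247, the zeta chain that carries most of the signalling motifs, stood at 274 and 7.50 FPKM (log2 -5.19). With Cd3e at -4.93 the median was -5.03, or 3.07% of the blood level. Of the coreceptors, Cd4 stood at 135 FPKM in blood and 4.70 FPKM in kidney, 3.49% of blood. Cd8a stood at 422 and 43.5 FPKM, 10.3% of blood, and Cd8b, the partner chain of Cd8a on most cytotoxic T cells, at 88.0 and 3.27 FPKM. Cd8a was thus closer to its blood level than Cd8b or Cd4, a difference between genes for which no test was made.

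The proximal signalling genes were all lower, 16 of 16, with a median log2 ratio of -4.02. The 11 T lineage lists hold 103 genes with at least 5 FPKM in blood, and 98 of them were below their blood level. This minimum was set on the blood level alone, so genes low in blood and higher in kidney, such as Tnfrsf9, were left out. The count of 98 is thus no measure of how the lists moved as a whole. The CD3 median is a mark within the range of the 103 genes. Below it lay 24 of the 103 genes, and 29 lay over 4-fold above it. At the low end Ptprc stood at 1.55% of blood (log2 -6.02). At the high end of the signalling list, Lat, the adaptor of the receptor, stood at 455 FPKM in blood and 88.3 FPKM in kidney (log2 -2.37), and Plcg1, the phospholipase it recruits, at 192 and 36.3 FPKM. Lck stood at 499 and 30.2 FPKM, between them. Plcg1 and several other genes of the list are also expressed outside T cells, and what tubule cells add to their kidney level was not tested.

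Homing receptors and naive cell factors had the lowest list medians of the plain log2 ratio. With a pseudocount of 1 FPKM this order was lost, with medians of -4.31 for the homing receptors, -4.61 for the naive factors and -4.95 for the CD3 chains. All 9 homing and egress receptors were lower in kidney, with a median log2 ratio of -5.87, or 1.71% of blood. Among them Itgb7, a subunit of the gut-homing integrin, was the least reduced at 116 FPKM in blood and 12.2 FPKM in kidney (log2 -3.24). All 11 naive cell factors were lower, with a median of -5.31. Satb1, a chromatin organizer of T cells, stood at 367 and 5.81 FPKM. Ets1, a lymphocyte transcription factor, stood at 639 and 15.7 FPKM. Klf2, which sustains S1pr1 expression, stood at 341 and 32.2 FPKM, and Dgka, a kinase that ends diacylglycerol signals, at 438 and 59.5 FPKM. The last pair kept a larger fraction of its blood level than Satb1 or Ets1.

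**Figure D2:**
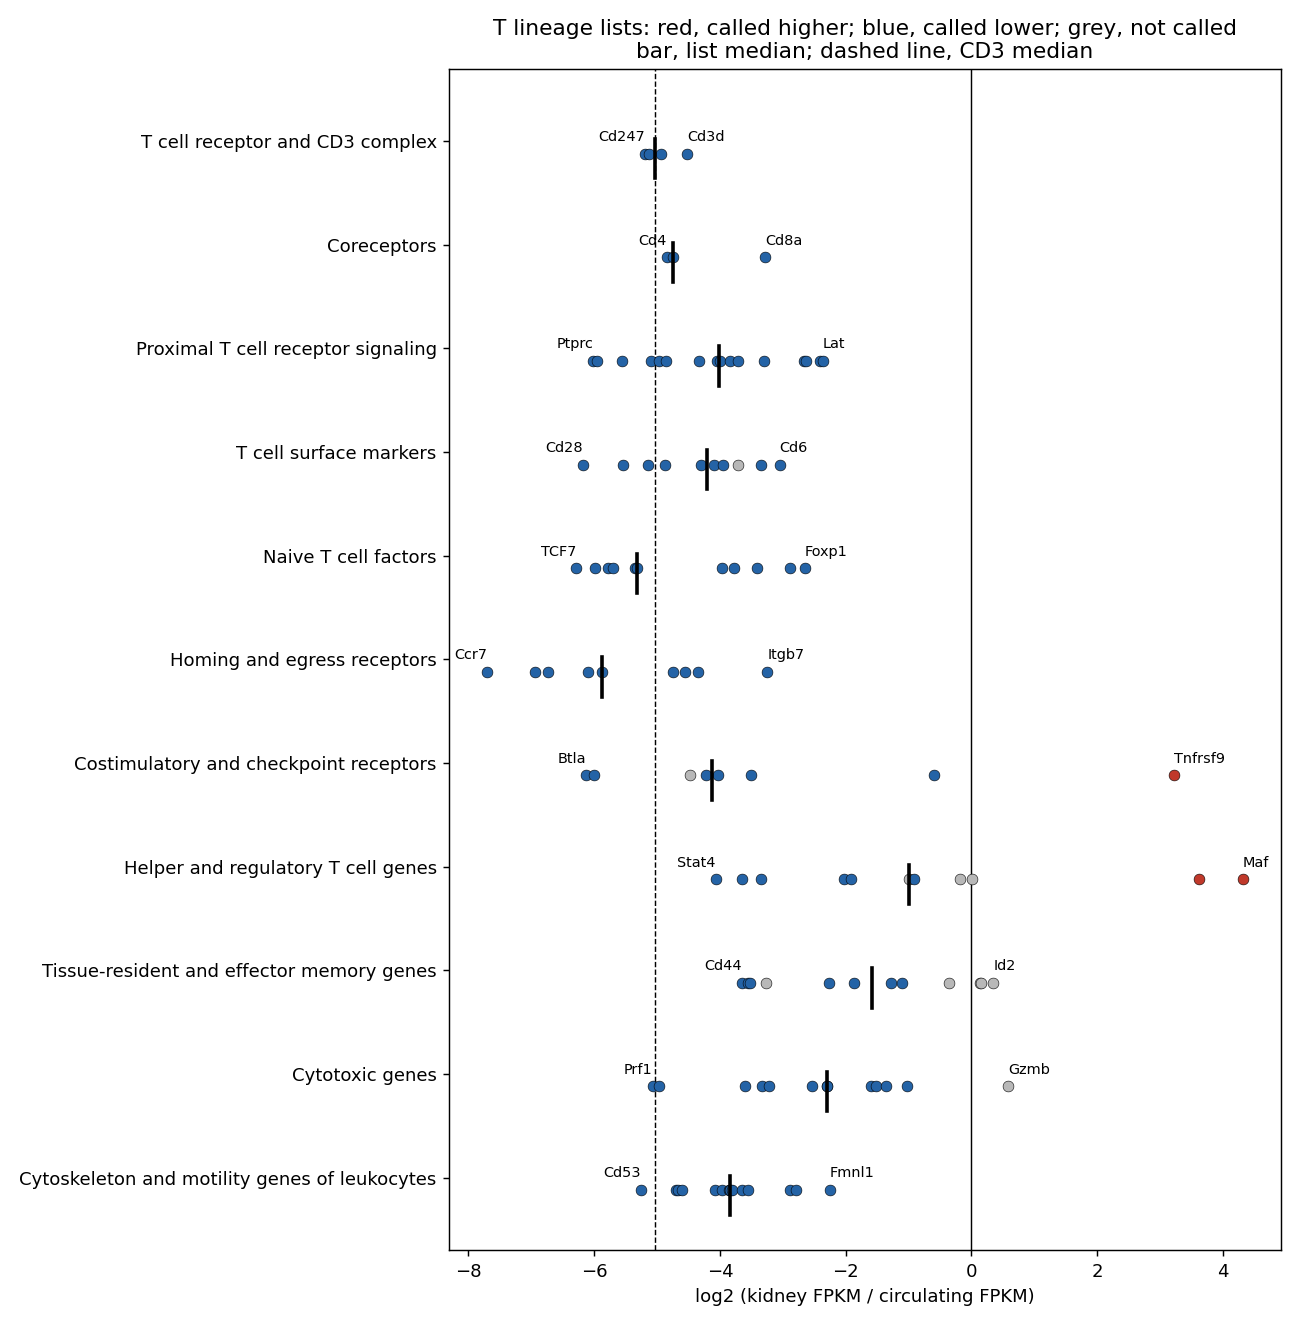
Log2 ratio of kidney over circulating FPKM (x axis) for members of the 11 T lineage lists (rows) above 0 in both tissues, with the lowest and highest member named. Red points were called higher in kidney, blue points lower and grey points not called. Bars mark list medians and the dashed line the median of the CD3 chains at -5.03. The homing receptors reach furthest left, with Ccr7 at -7.70, and Maf at 4.31 lies furthest right.

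Surface markers were lower in 9 of 10, and the exception, Cd7, stood at 81.6 FPKM in blood and 6.21 FPKM in kidney without passing the test (q = 0.15). Of 9 tested costimulatory and checkpoint receptors, 6 were lower and 1 was higher, beside 22.0% and 31.5% of all gene models tested. Cd40lg, the helper signal to B cells, stood at 132 FPKM in blood and 2.05 FPKM in kidney. Lag3, an inhibitory receptor of stimulated T cells, stood at 39.7 and 26.3 FPKM, 66.1% of blood. Tnfrsf9, the receptor 4-1BB, went the other way, from 3.43 FPKM in blood to 31.9 FPKM in kidney (log2 3.22, q = 0.000146).

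Genes of helper and regulatory T cells were spread widely. Of 11 tested, 6 were lower and 2 were higher, beside 22.0% and 31.5% of all gene models tested. The median was -0.99. Stat4, of the Th1 pathway, stood at 64.6 FPKM in blood and 3.87 FPKM in kidney. Gata3, the Th2 factor that is also made in the distal nephron, stood at 52.4 and 12.8 FPKM. Il2ra, the interleukin 2 receptor chain of regulatory and stimulated cells, stood at 19.1 and 5.05 FPKM. Of the 2 higher genes, Maf, a factor of helper T cells that is also known in macrophages and epithelium, had 6.99 FPKM in blood and 139 FPKM in kidney (log2 4.31). Il17a, the cytokine of Th17 cells, was listed at 0 in blood and 0.739 FPKM in kidney and was not tested. Foxp3, the factor of regulatory T cells, stood at 13.5 and 7.16 FPKM, 52.9% of blood, and was called lower.

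Genes of tissue-resident and effector memory cells lay nearest their blood level among the T lineage lists, apart from the helper genes. Of 12 tested, 7 were lower and none was higher, beside 22.0% and 31.5% of all gene models tested. The median log2 ratio was -1.58. Id2, a factor of effector and innate lymphocytes, stood at 148 FPKM in blood and 188 FPKM in kidney (q = 0.081). Rgs2 stood at 21.2 and 23.3 FPKM and S100a4 at 101 and 78.9 FPKM, neither called. Itgae, the CD103 integrin chain of T cells in epithelium, stood at 12.8 and 14.2 FPKM (q = 0.88). With Ahr and Maf, the genes Id2, Rgs2 and Itgae are the 5 of the 103 that were at or above blood, and of these Maf alone passed the test. The 103 were chosen by their blood level, which leaves out genes such as Tnfrsf9. Cd69, Cd44 and Cxcr4 of the same list were lower by far, at 12.5, 11.2 and 36.4 FPKM in kidney against 143, 140 and 425 FPKM in blood.

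Cytotoxic genes were lower in 12 of 13, with a median of -2.30, or 20.4% of blood. Ccl5, the chemokine of memory CD8 cells, stood at 252 FPKM in blood and 124 FPKM in kidney, 49.0% of blood (log2 -1.03). Ctsw, a protease of cytotoxic cells, stood at 239 and 48.7 FPKM, and Gzmm, granzyme M, at 103 and 21.0 FPKM. Klrk1, the receptor NKG2D, stood at 189 and 6.03 FPKM, near the fraction of the CD3 chains. The exception was Gzmb, granzyme B, at 2.32 FPKM in blood and 3.48 FPKM in kidney (q = 0.35). The leukocyte cytoskeleton and motility genes were lower in 15 of 15, with a median of -3.84. Tmsb4x, the actin-binding thymosin, was the most abundant symbol in blood at 17182 FPKM and stood at 2492 FPKM in kidney. Coro1a, coronin, stood at 1051 and 84.2 FPKM, and Arhgdib, a regulator of small GTPases, at 1893 and 111 FPKM.

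Markers of other leukocytes moved in both directions. Of 14 tested macrophage and monocyte genes, 12 were higher in kidney and 1 was lower. Apoe stood at 11.5 FPKM in blood and 339 FPKM in kidney (log2 4.89). Csf1r, the receptor of the macrophage growth factor, stood at 2.63 and 20.0 FPKM. The complement chains C1qa, C1qb and C1qc were listed at 0 in blood and stood at 7.47, 4.77 and 11.9 FPKM in kidney. Ctss, cathepsin S, was the member called lower, with 90.9 FPKM in blood and 14.6 FPKM in kidney. Called or not, 4 of the 19 measured members had a lower level in kidney than in blood. The summed level of the list was 157 FPKM in blood and 551 FPKM in kidney, of which Apoe alone made 11.5 and 339 FPKM. Which cells of the kidney libraries carry the Apoe transcripts was not tested.

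Of 8 tested genes of MHC class II and dendritic cells, 2 were higher, RT1-Bb and Cd74, and Ciita was lower. Cd74, the invariant chain, stood at 199 FPKM in blood and 278 FPKM in kidney (log2 0.48). RT1-Da stood at 70.3 and 75.6 FPKM (q = 0.63). Of 10 tested natural killer cell genes, 3 were lower, 1 was higher and 6 were not called, with a median of -2.66. Over all gene models tested, 22.0% were lower and 31.5% higher. Klrb1c stood at 72.9 and 1.94 FPKM, whereas Tyrobp, an adaptor shared with myeloid cells, stood at 27.5 and 43.8 FPKM and was called higher. Of 11 B cell genes, 5 were lower and 1, Pax5, was higher, with 13.9 FPKM in blood and 28.1 FPKM in kidney. Ms4a1, the B cell antigen CD20, was at 0.584 FPKM in kidney, near 0. Granulocyte genes were at most 7.98 FPKM in kidney except Lcn2, a gene also of injured tubules, at 76.2 FPKM (q = 0.16). Pf4 stood at 17.1 FPKM in kidney and was not called.

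Red cell transcripts were higher in kidney. Hba1, an alpha globin, stood at 42.6 FPKM in blood and 1543 FPKM in kidney (log2 5.18, q = 0.000146). Hba2 stood at 22.3 and 878 FPKM (log2 5.30). Alas2, the erythroid enzyme of heme synthesis, stood at 0.379 and 6.28 FPKM. Of 7 tested erythroid genes, 4 were higher and none was lower, beside 31.5% and 22.0% of all gene models tested. The fourth called member was the gene model of beta globin. Hba1 and Hba2 are near-identical copies, so how their reads were divided is uncertain.

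Nephron genes were higher in kidney, yet many of the largest ratios were not called. Of 22 tested proximal tubule transporters, 13 were higher and 9 were not called, and none was lower. Slc22a6, the organic anion transporter, stood at 0.00592 FPKM in blood and 760 FPKM in kidney without passing (log2 16.97, q = 0.29). Slc22a12, the urate transporter, stood at 0.00922 and 424 FPKM (q = 0.28). Aqp1, the water channel of the proximal tubule, stood at 0.0294 and 1268 FPKM (q = 0.29). Slc22a8, by contrast, was listed at 0 in blood and 217 FPKM in kidney and was called.

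The proximal tubule enzymes and factors showed the same split, with 13 of 22 tested called higher. Hnf4a, the tubule and liver transcription factor, stood at 0.00264 FPKM in blood and 606 FPKM in kidney (q = 0.30). Hpd, of tyrosine breakdown, stood at 0.00846 and 1119 FPKM (q = 0.29), and Hao2, a hydroxyacid oxidase, at 0.0275 and 2262 FPKM (q = 0.24). Spp1, osteopontin, was the symbol with the largest ratio among the highest kidney genes, 0.024 FPKM and 5339 FPKM, and was likewise not called (q = 0.29). The medians over members above 0 in both tissues were 10.85 for the transporters and 12.74 for the enzymes and factors, the highest of all lists.

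The share of calls followed the level in the lower tissue. Among gene models with at least 20 FPKM in kidney and over 4 times the blood level, 397 of 465 listed at 0 in blood were called, 85.4%. With a blood level above 0 and up to 0.1 FPKM, 85 of 271 were called, 31.4%. The share was 72.1% from 0.1 to 1 FPKM and 94.6% above 1 FPKM. In the other direction 876 of 912 gene models were called where the kidney level was above 1 FPKM, 96.1%. Among these gene models with large ratios toward kidney, those not called numbered 186 with such a trace value in blood, 68 listed at 0, 90 from 0.1 to 1 FPKM and 47 above 1 FPKM.

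**Figure D3:**
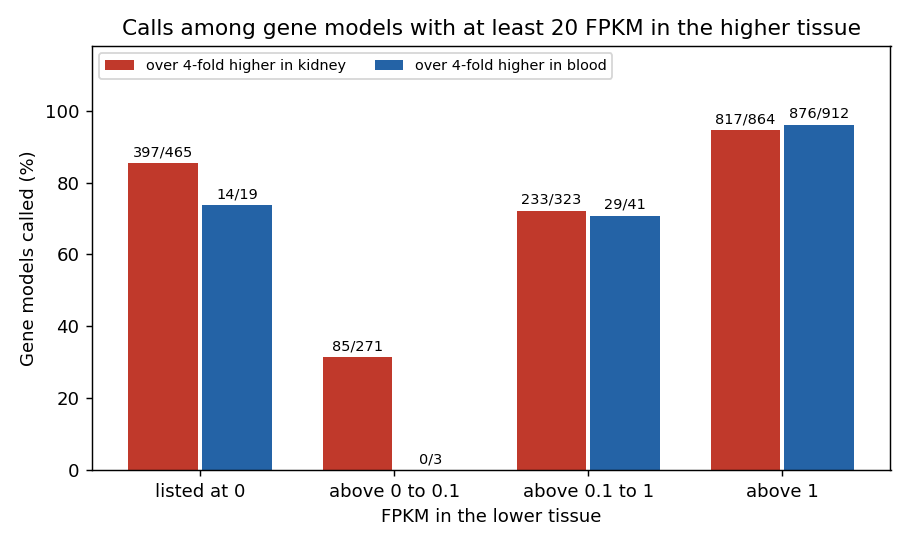
Share of gene models called (y axis, %) by the FPKM in the lower tissue (x axis), for tested gene models whose larger value reached 20 FPKM and was over 4 times the smaller. Red bars are higher in kidney, blue bars higher in blood, and the numbers above each bar are called over all. The red bar is lowest, at 31.4%, where blood held a trace value of up to 0.1 FPKM.

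Genes of the later tubule segments were also higher. Of 16 tested thick limb and distal tubule genes, 11 were higher and 2 lower. SLC12A1, the cotransporter blocked by loop diuretics, was listed at 0 in blood and stood at 115 FPKM in kidney. Cldn10, a claudin of the thick limb, stood at 2.53 and 147 FPKM. The 2 lower members were TRPM6, at 26.1 FPKM in blood and 10.0 FPKM in kidney, and Wnk1, at 35.6 and 24.7 FPKM, a kinase gene that many cell types express. Of 16 collecting duct genes 11 were higher and none was lower. Aqp2, the water channel under vasopressin control, was listed at 0 in blood and 186 FPKM in kidney. Epcam, an epithelial adhesion molecule, stood at 0.154 and 462 FPKM.

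Of 10 tested intercalated cell genes, 7 were higher. Car2, carbonic anhydrase, stood at 38.6 FPKM in blood and 355 FPKM in kidney, and Atp6v1b1, a proton pump subunit, at 0.0343 and 62.6 FPKM. Of 8 tested podocyte and parietal genes, 6 were higher and none was lower, with summed levels of 3.41 FPKM in blood and 155 FPKM in kidney. Nphs1, nephrin of the slit diaphragm, was at 0.465 FPKM in kidney and not tested, and Podxl was at 5.37 FPKM (q = 0.28). Pax8, a factor of nephron epithelium and parietal cells, stood at 0.0856 FPKM in blood and 101 FPKM in kidney and was called.

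Endothelial genes were higher in 9 of 17 tested and lower in 3. Esam, a junction molecule, stood at 0.0437 FPKM in blood and 63.5 FPKM in kidney, and Emcn, endomucin, was listed at 0 and 21.7 FPKM. The 3 lower members were Pecam1 at 32.2 and 13.6 FPKM, Ehd3 at 75.9 and 10.3 FPKM and Vwf at 16.9 and 8.39 FPKM, of which Pecam1 is also a leukocyte gene and Vwf also a platelet gene. Among fibroblast and mural genes 6 of 12 tested were higher, against 31.5% of all gene models tested. Sparc, a matrix protein, stood at 8.28 and 80.9 FPKM, while the fibrillar collagen genes Col1a1, Col1a2 and Col3a1 were at 0.124, 0.381 and 0.272 FPKM in kidney and not tested.

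Of 5 tested sodium pump subunits, 4 were higher and 1 was lower, against 31.5% higher and 22.0% lower over all gene models tested. Atp1b1, the main renal beta subunit, stood at 2.73 FPKM in blood and 694 FPKM in kidney (log2 7.99). Atp1b3, a beta subunit of lymphocytes, went down from 126 to 95.8 FPKM (log2 -0.39), a ratio that the tables within each tissue move toward 0. Of 5 tested genes of the angiotensin system, 3 were higher and none was lower. Enpep, the aminopeptidase that cleaves angiotensin II, stood at 0.00284 and 56.9 FPKM without passing (q = 0.30), and Agtr1a, the angiotensin receptor, was listed at 0 and 4.08 FPKM and was called. Of 8 tested osmotic and salt response genes, 4 were higher and 2 lower. Sgk1, the kinase under aldosterone control, rose from 10.9 to 137 FPKM (log2 3.66). Tsc22d3, a glucocorticoid target, fell from 430 to 77.7 FPKM (log2 -2.47), and Akr1b1, aldose reductase, fell from 78.9 to 34.8 FPKM.

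Tubular injury genes were higher in 5 of 10 tested, against 31.5% of all gene models tested, and lower in 1. Clu, clusterin, stood at 1.71 FPKM in blood and 164 FPKM in kidney, and Cd24, an epithelial surface protein also on some leukocytes, at 2.31 and 412 FPKM. Vim, vimentin, the intermediate filament of leukocytes and mesenchyme, was lower, with 356 FPKM in blood and 181 FPKM in kidney. Havcr1, the injury marker KIM-1, was at 4.86 FPKM in kidney.

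Mitochondrial genes were higher in kidney nearly throughout. All 21 complex I genes were called higher, with a median log2 ratio of 2.06 and a range from 1.22 to 2.69. All 11 tested genes of complexes II and III and 15 of 16 of complex IV and ATP synthase were higher, with medians of 2.00 and 1.98. Ndufa4 stood at 188 FPKM in blood and 873 FPKM in kidney. Cycs, cytochrome c, stood at 44.4 and 604 FPKM (log2 3.77), and Atp5b, the catalytic ATP synthase subunit, at 334 and 2037 FPKM. The ratios ran from 0.60 to 3.77 in complexes II and III and from 0.14 to 3.36 in complex IV and ATP synthase. These ranges, and that of complex I, were narrower than those of the nephron lists. The background share of gene models higher in kidney is the 31.5% given above.

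Of 17 citric acid cycle genes, 16 were higher, with a median of 1.59. Idh2, the mitochondrial NADP isocitrate dehydrogenase, stood at 13.6 and 561 FPKM (log2 5.36), and Cs, citrate synthase, did not pass, at 80.0 and 81.8 FPKM (q = 0.89). Fatty acid oxidation genes were higher in 17 of 21, with a median of 2.36. Etfb, the electron transfer flavoprotein, stood at 25.4 and 403 FPKM, while Cpt1a, the carnitine transferase of the first step, stood at 26.7 and 19.4 FPKM (q = 0.14). Glycolytic genes split by isozyme. Ldhb rose from 9.14 to 832 FPKM (log2 6.51) and Ldha fell from 240 to 160 FPKM (log2 -0.59). Hk2 fell from 5.62 to 1.21 FPKM, and Pkm stood at 193 and 198 FPKM. In all, 12 of 17 tested were higher and 2 were lower.

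Antioxidant genes were higher in 20 of 25, and the 2 that were lower were genes of the leukocyte oxidase. Gpx1, glutathione peroxidase, stood at 130 FPKM in blood and 1170 FPKM in kidney, and Sod1 at 267 and 1791 FPKM. Cybb, the catalytic subunit of the phagocyte oxidase, stood at 5.95 and 4.05 FPKM (log2 -0.55), and Rac2, its leukocyte GTPase, at 996 and 71.4 FPKM. Nox4, the oxidase of tubule cells, was listed at 0 in blood and 23.9 FPKM in kidney.

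Ribosomal protein genes were lower in 32 of 34, with a median of -2.14. Rps24 stood at 9525 FPKM in blood and 2081 FPKM in kidney. Symbols of ribosomal proteins made up 40.9% of all summed FPKM in blood and 11.7% in kidney. FPKM is scaled to the size of each library, and what this large block in blood does to the ratios of other genes was not tested. Rpl41 was the most abundant symbol in kidney at 7322 FPKM, against 15491 FPKM in blood. Fth1 and FTL1, the ferritin chains, were among the 10 highest symbols in kidney, with 5775 and 3412 FPKM against 613 and 229 FPKM in blood.

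Proteasome subunits differed by type. Psmb8, Psmb9 and Psmb10, the catalytic subunits of the immunoproteasome, stood at 166, 139 and 138 FPKM in blood and 34.2, 34.9 and 43.0 FPKM in kidney, and all 3 were lower. Psmb5, Psmb6 and Psmb7, the constitutive subunits they replace, stood at 101, 68.0 and 90.2 FPKM in blood and 183, 140 and 133 FPKM in kidney, and all 3 were higher. Of the 20 genes, 5 were higher and 4 lower, beside 31.5% and 22.0% of all gene models tested. The list median was -0.13.

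Immediate early genes, which respond within minutes to stimuli that include tissue digestion, were higher in 13 of 18 tested. Fos stood at 4.71 FPKM in blood and 228 FPKM in kidney (log2 5.60), and Jun at 31.2 and 246 FPKM. Dusp1, a phosphatase that ends MAP kinase signals, stood at 27.3 and 168 FPKM. The 4 lower members were Jund, KLF6, Btg2 and Myc, of which Btg2, an antiproliferative gene, stood at 328 and 45.9 FPKM. Atf3 stood at 0.0456 and 51.2 FPKM without passing (q = 0.20). Whether isolation of the cells has a part in these levels was not tested.

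Of 16 tested NF-kB targets and cytokines, 8 were higher and 3 lower, beside 31.5% and 22.0% of all gene models tested. Cxcl16, the ligand of Cxcr6, stood at 0.596 FPKM in blood and 85.1 FPKM in kidney (log2 7.16), and Ccl3, a chemokine of stimulated leukocytes, at 26.9 and 93.9 FPKM. Socs3, a feedback inhibitor of cytokine signals, stood at 24.3 and 72.9 FPKM and was higher as well. The lower members were the regulators Tnfaip3 at 71.0 and 9.35 FPKM, Nfkbia at 144 and 65.5 FPKM and Nfkbiz at 20.2 and 14.1 FPKM. Interferon-stimulated genes were lower in 9 of 15 tested and higher in none. Mx1 stood at 156 FPKM in blood and 4.67 FPKM in kidney (log2 -5.06), and Ifi27 at 388 and 144 FPKM.

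**Figure D4:**
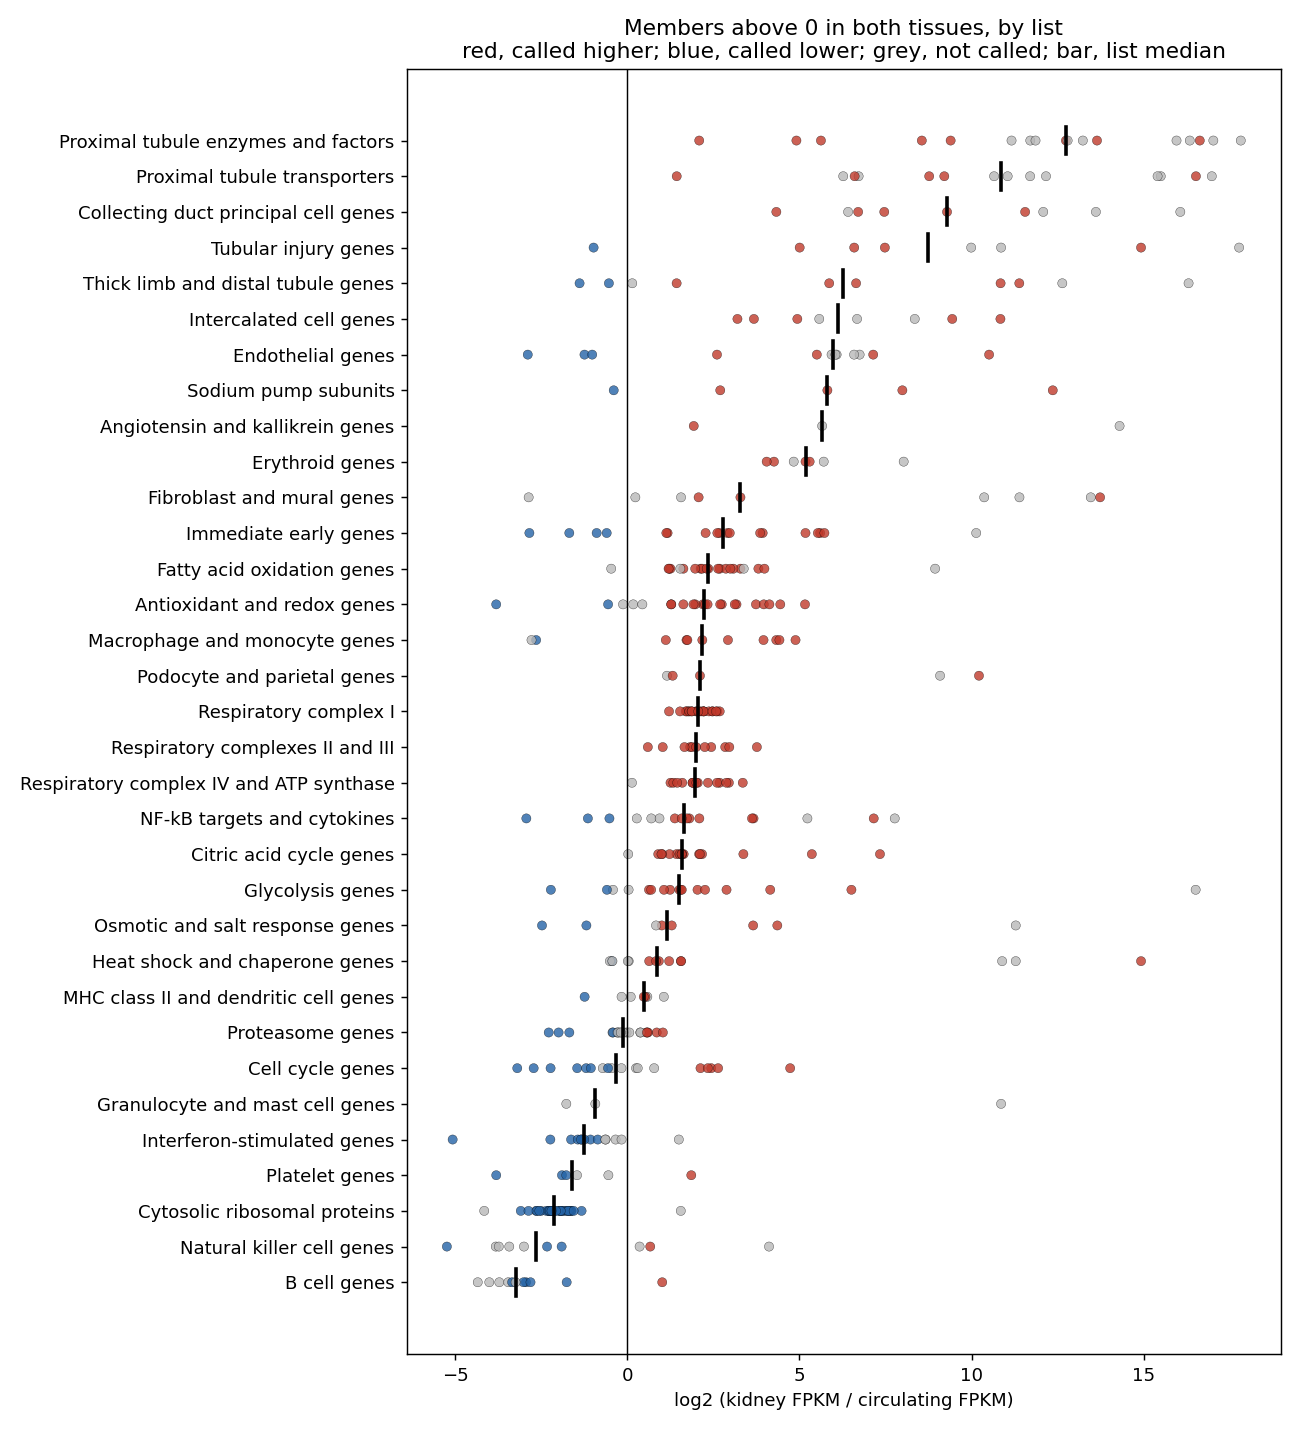
Log2 ratio of kidney over circulating FPKM (x axis) for members above 0 in both tissues of the lists outside the T lineage (rows, ordered by median). Red points were called higher in kidney, blue points lower and grey points not called, and bars mark list medians. The medians run from -3.24 for B cell genes to 12.74 for proximal tubule enzymes and factors, where many of the largest ratios are grey.

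The same contrast of tissues was then set beside that of SS/CRL rats on high salt and that of SS/MCW rats on low salt at the same age, which share no library with it. The difference of the log2 ratios was tested for each gene model with its standard error taken from the Cuffdiff statistic. Against SS/CRL high salt, 2 of 15975 gene models passed (Benjamini-Hochberg q under 0.05), 0.0125%, and 87 had an unadjusted p under 0.05. Against SS/MCW low salt, 3 of 15563 passed, 0.0193%, and 27 had an unadjusted p under 0.05. These unadjusted counts are 0.54% and 0.17% of the gene models, below the share of 0.05 that a calibrated test gives where nothing differs. The test was thus conservative, and the low counts do not show that the contrasts are alike. The test is a normal approximation that rests on Cuffdiff statistics from 4 pools a group, and a difference that did not pass is not shown to be absent.

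Hba1 was the single gene with a symbol that passed. Its kidney level was 1543 FPKM on low salt and 323 FPKM on high salt, and its blood levels were 42.6 and 83.1 FPKM. The log2 ratios were 5.18 and 1.96, a difference of 3.22 (q = 0.00148). With the standard error taken from the deposited p, which cannot go below 5e-05, the q for Hba1 was 0.989. Hba2 differed in the same direction by 2.91 without passing (q = 0.13). In SS/MCW rats on low salt Hba1 stood at 30.7 FPKM in blood and 2255 FPKM in kidney, a log2 ratio of 6.20. Hemoglobin transcripts come from red cells and reticulocytes, and how much blood was left in the kidney preparations was not measured.

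The other gene models that passed carry no symbol and have Cuffdiff statistics out of keeping with their own deposited p. MSTRG.59259, at chrM:15347-15415, passed in both comparisons, with log2 ratios of 4.73 here, 5.73 on SS/CRL high salt and 5.63 in SS/MCW. Its deposited statistic was 578 here with a deposited p of 0.193. ENSRNOG00000041370 and ENSRNOG00000047297 passed against SS/MCW, with deposited p-values here of 0.703 and 0.559. None of these 3 passed when the standard error was taken from the deposited p.

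Stub1, a chaperone-linked ubiquitin ligase, was among the 5 genes with the smallest p in both comparisons. It stood at 63.2 FPKM in blood and 120 FPKM in kidney here, a log2 ratio of 0.92. On SS/CRL high salt it stood at 314 and 108 FPKM, and in SS/MCW at 459 and 98.8 FPKM, so the kidney levels were alike and the blood level of these rats was the one that stood apart. The differences of 2.47 and 3.14 did not pass (q = 0.507 and 0.431) and did pass with the standard error from the deposited p (q = 0.00353 and 0.00557). Prkcb, a protein kinase C of lymphocytes, stood at 34.1 FPKM in kidney here and 2.71 FPKM on high salt, with blood levels of 64.8 and 68.4 FPKM. Its difference of 3.73 did not pass (q = 0.196). Crip1, at 98.9 FPKM in kidney here and 443 FPKM in SS/MCW, did not pass either (q = 1.000).

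List medians can be set side by side for the 3 contrasts. The CD3 median was -5.03 here, -5.22 on high salt and -4.06 in SS/MCW, and summed CD3 levels in kidney were 93.5, 87.4 and 229 FPKM. Cd8a had log2 ratios of -3.28, -3.69 and -2.34. Proximal tubule levels were highest in the kidney libraries described here, with summed FPKM over the enzymes and factors of 12476, against 7636 on high salt and 6178 in SS/MCW. Slc34a1 stood at 2989, 702 and 488 FPKM in kidney in the same order. Thick limb and distal genes had the opposite order, with sums of 2305, 3206 and 5712 FPKM, and Umod stood at 953, 1380 and 3565 FPKM. Neither difference of Slc34a1 passed. Umod could not be tested because it was listed at 0 in blood here, and no test was made on the sums. The FPKM levels of the 3 contrasts were set side by side without a common scaling. The part of these tubule levels in the T cell ratios was not tested.

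**Figure D5:**
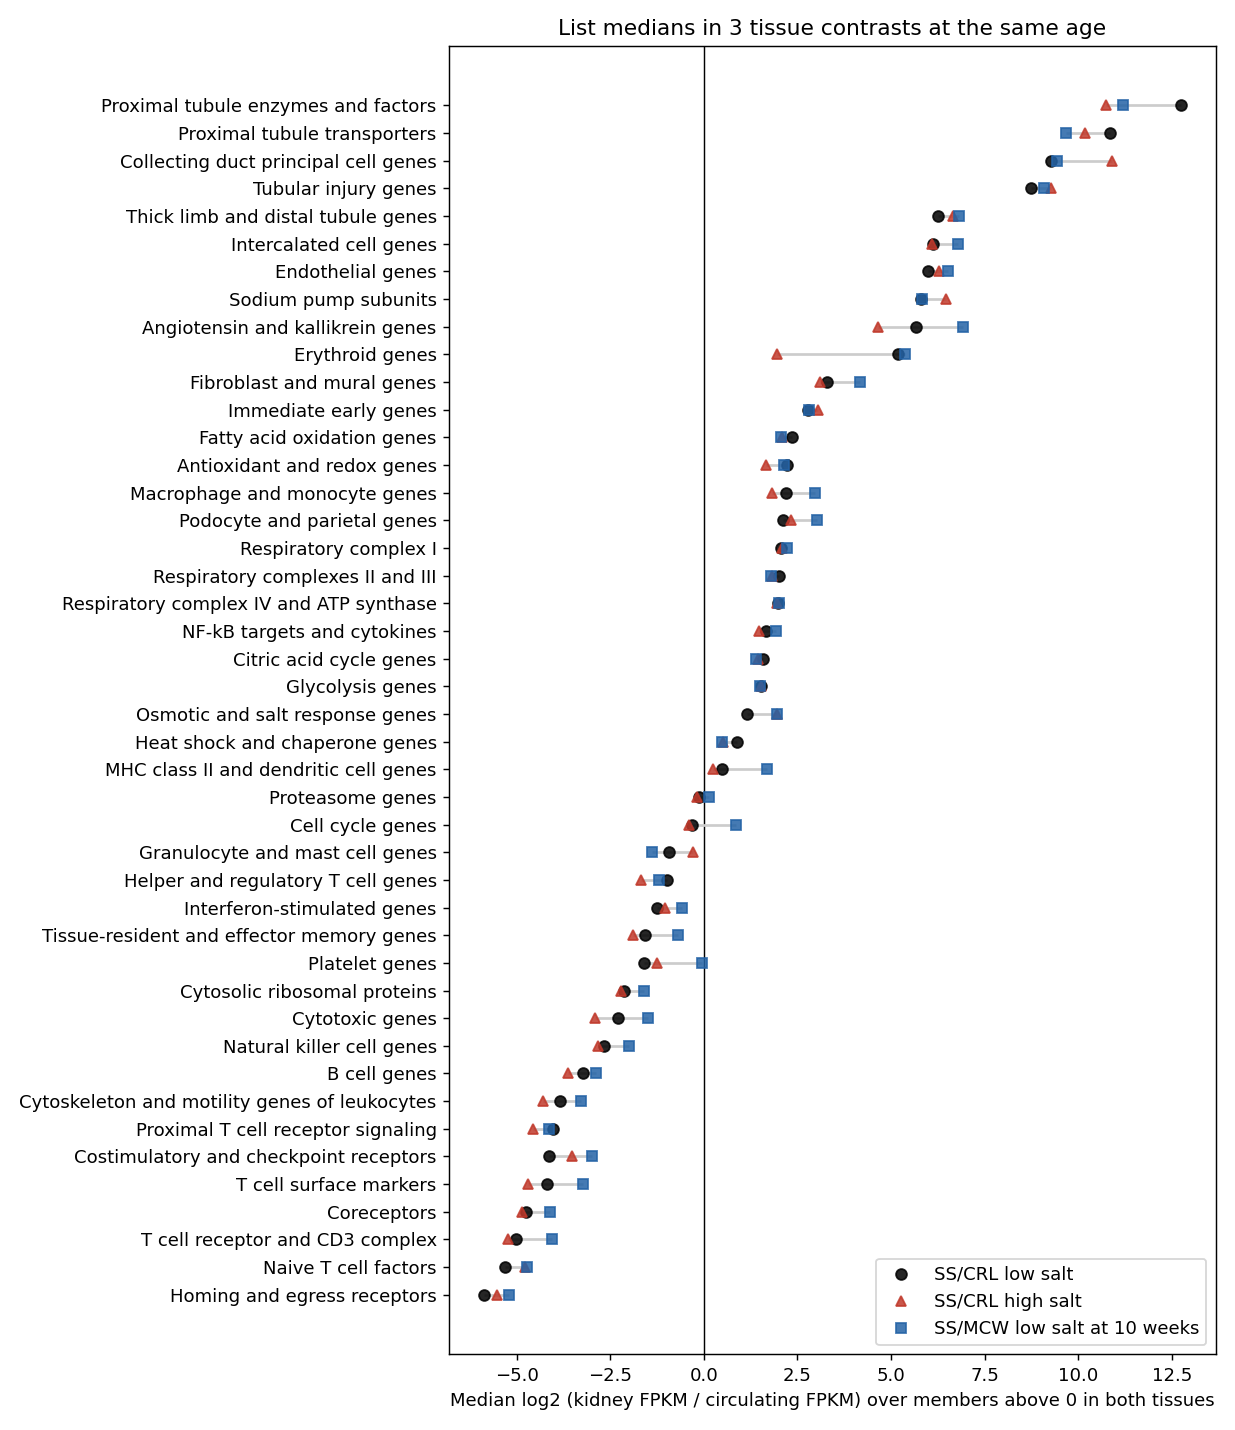
Median log2 ratio of kidney over circulating FPKM (x axis) for each list (rows), in SS/CRL rats on low salt (black circles), SS/CRL rats on high salt (red triangles) and SS/MCW rats on low salt (blue squares), all at 10 weeks. The symbols lie close together for most lists, though the other contrasts leave out members listed at 0 in either tissue there. Collecting duct genes have 9.28 here, but 8.37 over the 8 genes that give 9.43 in SS/MCW. The erythroid list has the widest gap, with 5.18 on low salt and 1.96 on high salt in SS/CRL rats.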

How the data were processed

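RNA of T cells from blood and kidney was extracted with TRIzol and sequenced from TruSeq libraries, per the labels' protocols, 4 pools of 3 rats in each group. Per the submitters' processing notes, reads were handled with cutadapt, Trim Galore 0.2.5, TopHat, TopHat2 2.1.1, Cufflinks 2.2.1 and Cuffdiff on build rn5, and the settings are not given in the sources used here. Per the file headers, the deposited expression values are FPKM, 1 per group, computed by the authors with Cuffdiff. The test statistic is the Cuffdiff score in the deposited tables, with the p-value and q-value of the authors beside it. Per-library values were not analysed here, so no SD, no run without a library and no check for outlying libraries was made, and depth and the precision it gives are unknown.

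Log2 ratios were recomputed from the FPKM, since 5160 statistics of the table had been lost to a spreadsheet. That program had also turned 25 symbols into dates. Of the gene models, 355 carry several symbols and 8074 share a locus, for which no coordinates are given. A call is q under 0.05 with status OK. Of 15 deposited tables, 7 were used. Tests across them compared log2 ratios, while FPKM levels and sums from different tables were only set side by side. The difference of 2 log2 ratios was tested with a z statistic and a normal approximation, adjusted by Benjamini-Hochberg over all gene models, and its q is separate from the deposited q. It used Python 3.11.15 and scipy 1.17.1. A check on simulated data drew its noise from the same standard errors. It could thus not show whether those errors hold for the real data. Gene lists, 44 with 683 genes, of which 635 were matched (24 by a synonym or another case), are described by counts and by medians over tested members with at least 1 FPKM and values above 0 in both tissues. The members and lists were chosen with earlier results of these data known.

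Genes named were the 15 largest rises and falls among called genes with 1 symbol and at least 5 FPKM, the 10 highest in each tissue, and the 6 highest listed at 0 in the other tissue. From each list came up to 5 of its highest members, called members against its majority and up to 3 members not called with at least 20 FPKM. Cd3e, Cd4, Cd8a, Ptprc, Slc34a1 and Umod were always named, as were the leading differences between contrasts. Foxp3, Itgae, Ahr, Il17a, Gzmb, C1qa, C1qb, C1qc, Ms4a1, Slc22a8, Nphs1, Col1a1, Col1a2, Col3a1, Havcr1, Nox4, Psmb6, Psmb7, Pcbd1, Atp6v0a4, Cytip and MSTRG.43177 were named after their values were seen. Results on some genes are not reported here. Promoters were matched to RefSeq by symbol, or by a synonym that points to a single gene, and the first start of each symbol was used. For genes that differed over 16-fold, 77.0% of the higher and 71.3% of the lower matched, so base composition and motif shares of these sets are void.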

Additional observations from a re-analysis of the deposited data

Results flagged for a closer look

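The tissue contrast of 4 gene models differed between groups of rats by the test with the standard error from the Cuffdiff statistic. None of the 4 passed with the standard error from the deposited p. Hba1 had a kidney over blood log2 ratio larger by 3.22 in SS/CRL rats on low salt than in those on high salt. MSTRG.59259, a mitochondrial gene model, had a ratio that differed by -1.01 from that on SS/CRL high salt and by -0.90 from that in SS/MCW rats on low salt. ENSRNOG00000041370 differed from SS/MCW by 0.30 and ENSRNOG00000047297 by -1.78. No outlying library could be looked for with 1 value a group.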

How the results depend on the processing

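No paired analysis was possible because the tables give 1 value a group, so the pool numbers shared by the blood and kidney libraries cannot enter a fit, nor can a library be left out. The count of 12115 calls became 10474 at q under 0.01, 11893 with a minimum of 1 FPKM and 8344 with values above 0 in both tissues. It fell to 4859 with a normal p from the test statistic and to 4870 when the ratios were also recentred, with 52.2% and 57.6% of the calls higher in kidney against 58.9%. Gene models without a statistic, such as Kap and Umod at 0 in blood, cannot be called in these settings. The nearer base is thus the 8344 calls above 0 in both tissues, of which 50.7% were higher in kidney. With gene models of 1 symbol only, an alternative chosen after seeing the data that leaves fewer gene models, the count of calls was 7458. Against SS/CRL high salt, 2 differences passed under each alternative, although with the standard error from the deposited p they were those of Stub1 and Clcn6 (the latter 1.32). Against SS/MCW that standard error left 1, Stub1. Of 44 list medians, the sign turned in the granulocyte list with no minimum, to 0.74, and in the proteasome list when recentred, to 0.014. A pseudocount of 1 FPKM moved 17 list medians by 0.5 or more on the log2 scale and turned none, and it moved 85 of 266 named ratios. Levels under about 0.1 FPKM rest on traces of signal whose depth is unknown.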

Other observations

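Of 18 cell cycle genes, 5 were higher in kidney and 7 lower, beside 31.5% higher and 22.0% lower over all gene models tested. The replication factors Mcm2, Mcm3 and Mcm6, subunits of the helicase that opens origins, stood at 14.6, 32.9 and 17.8 FPKM in blood and at 6.40, 3.60 and 3.82 FPKM in kidney. Cdkn1b, the inhibitor p27 of resting lymphocytes, stood at 239 FPKM in blood and 36.4 FPKM in kidney, whereas Cdkn1a, the inhibitor p21 of stressed cells, stood at 0.209 and 5.57 FPKM. The mitotic genes Cdk1, Cdc20 and Ccnb2 were at 6.23 FPKM or less in both tissues and were called higher in kidney. Mki67, named after its value was seen, stood at 1.50 and 0.921 FPKM and was not called (q = 0.23).

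Of 14 heat shock and chaperone genes, 7 were higher in kidney and 1 was lower, beside 31.5% and 22.0% of all gene models tested. Hspe1 and Hspd1, the mitochondrial chaperonins, had log2 ratios of 1.57 and 1.56, close to those of the respiratory complexes. Hspa5, the chaperone of the endoplasmic reticulum, stood at 202 FPKM in blood and 149 FPKM in kidney and was lower. Hspb1, a small heat shock protein, stood at 0.0453 and 85.6 FPKM without passing (q = 0.30), and Hsp90ab1 stood at 770 and 544 FPKM (q = 0.056).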
